A study of Mus musculus with 9 samples.

Results

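The 10 genes described belong to the Hippo pathway and code for its coactivators YAP and TAZ, the TEAD factors, the LATS kinases and 2 angiomotin-like scaffolds. They are *Yap1* and *Wwtr1* (the gene for TAZ), *Tead1*, *Tead2*, *Tead3*, *Tead4*, *Lats1*, *Lats2*, *Amotl1* and *Amotl2*, and they were picked by name from the 55228 genes of the count table. RNA-seq was made from 9 undifferentiated cultures of HC11, a mouse mammary epithelial cell line, with 3 cultures each of parental cells (*WT*) and of *KD1* and *KD2*. Both *KD* lines were made by nucleofection of Cas9 with a *Vangl2* guide and a repair template that carries stop codons, were grown from single colonies, and are named *Vangl2* knockouts in the labels. All 9 cultures were grown in RPMI that held EGF at 10 ng/mL, insulin at 5 µg/mL and 10% FBS, and none had another treatment. The paper describes the cells used for RNA-seq as confluent or nearly so. Each *KD* line is 1 clone, and an unedited clone was not analysed here, so loss of *Vangl2* and the origin of a line from 1 cell cannot be told apart. Beyond the replicate numbers, nothing in the labels says that the cultures of a line were grown separately, and the p-values measure only the spread between these cultures.

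In the Hippo pathway, the kinases LATS1 and LATS2 phosphorylate YAP and TAZ, which holds them in the cytoplasm or leads to their breakdown. YAP and TAZ that reach the nucleus do not bind DNA themselves, and switch on genes through the TEAD transcription factors. Angiomotin-like proteins at cell junctions bind YAP and TAZ, and in the mammary epithelium the pathway is known for its response to cell density, polarity and stretch. The pathway acts mainly on proteins, while the values here are levels of mRNA.

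The sequence that the TEAD factors recognise has GGAATG at its core, and it was looked for on both strands (CATTCC on the other) in RefSeq promoter windows of GRCm38.p6, which run from 250 bases before to 50 bases after an annotated start. The RefSeq table matched 8 of the 10 genes, with 12 promoters, of which 7 (58.3%), from 5 genes, held the motif. Of all 32851 promoters in the table, 4817 (14.7%) held it. Counted by gene, 4481 of 27025 held it, beside 5 of the 8 here. The windows of a gene can overlap, as they do for *Wwtr1*, where the same motif is counted more than once. Stretches around the motif are shown for 4 of these 5 genes and for *Ccn1*, the standard reporter gene of YAP and TAZ, since the levels of these genes are compared between the lines. Each is written 5′ to 3′ along the gene with the motif in capitals.
Yap1, chr9:8004707-8004762, minus strand: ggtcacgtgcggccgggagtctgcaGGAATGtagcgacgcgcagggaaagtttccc
Wwtr1, chr3:57576016-57576071, minus strand: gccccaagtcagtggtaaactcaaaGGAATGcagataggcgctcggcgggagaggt
Tead3, chr17:28350957-28351012, minus strand: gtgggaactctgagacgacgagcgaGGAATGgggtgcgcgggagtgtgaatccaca
Amotl2, chr9:102717714-102717769, plus strand: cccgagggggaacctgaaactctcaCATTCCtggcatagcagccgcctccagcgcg
Ccn1, chr3:145650058-145650113, minus strand: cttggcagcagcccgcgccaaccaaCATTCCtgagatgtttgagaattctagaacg
The motif lies 136 bases before the annotated start in *Yap1*, 60 in *Amotl2* and 98 in *Ccn1*. In *Wwtr1* it lies 165 bases before the annotated start farther from it, and another annotated start is nearer. In *Tead3* it lies 177 bases before 1 annotated start, and another has the motif on the other strand 118 and 109 bases before it. In *Lats2* it lies after the start, and the windows of *Tead2*, *Lats1* and *Amotl1* do not hold these letters. *Tead1* and *Tead4* were not matched, and their promoters were not searched. A match is a description of the sequence, and binding of TEAD factors was not measured.

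All 10 genes were expressed in every culture and passed the filter on low counts, which kept 15253 genes. Levels are given in CPM, the reads of a gene scaled to the TMM-adjusted library, and a gene is said to rise or fall where edgeR's quasi-likelihood test gave a Benjamini-Hochberg adjusted p under 0.05 over all genes tested. In *KD1* against *WT*, 0 of the 10 rose and 4 fell (*Yap1*, *Tead3*, *Lats2* and *Amotl2*), beside 26.9% of all genes tested that rose and 30.0% that fell. In *KD2* against *WT*, 5 rose (*Wwtr1*, *Tead1*, *Tead2*, *Tead3* and *Amotl2*) and 2 fell (*Lats1* and *Amotl1*), beside 34.0% and 33.3% of all genes. Both comparisons use the same 3 *WT* cultures. Between the lines themselves, 7 of the 10 were higher in *KD2* than in *KD1* and 2 were lower (*Tead4* and *Amotl1*), beside 34.8% and 33.0% of all genes. A call in a given direction is thus common in these lines, and the counts of the 10 genes are to be read against those shares.

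No call among the 10 genes reached a 2-fold change (an absolute log2 fold change above 1) in any comparison, while 16.8% of all genes did in *KD1* against *WT*, 21.2% in *KD2* against *WT* and 23.3% between the *KD* lines. The median log2 fold change of the 10 was -0.084 in *KD1* against *WT*, 0.11 in *KD2* against *WT* and 0.41 in *KD2* against *KD1*, and that of all genes tested was -0.031, 0.0091 and 0.016. The 3 cultures of each line lay apart, with no overlap, for 7 of the 10 genes in *KD1* against *WT* (68.8% of all genes), for 8 in *KD2* against *WT* (67.9%) and for all 10 between the *KD* lines (71.6%). *Tead3* and *Amotl2* were called in opposite directions in the 2 *KD* lines, lower in *KD1* and higher in *KD2*. The call of *Tead3* in *KD2* did not hold when certain cultures were left out, while both calls of *Amotl2* did.

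**Figure D1:**
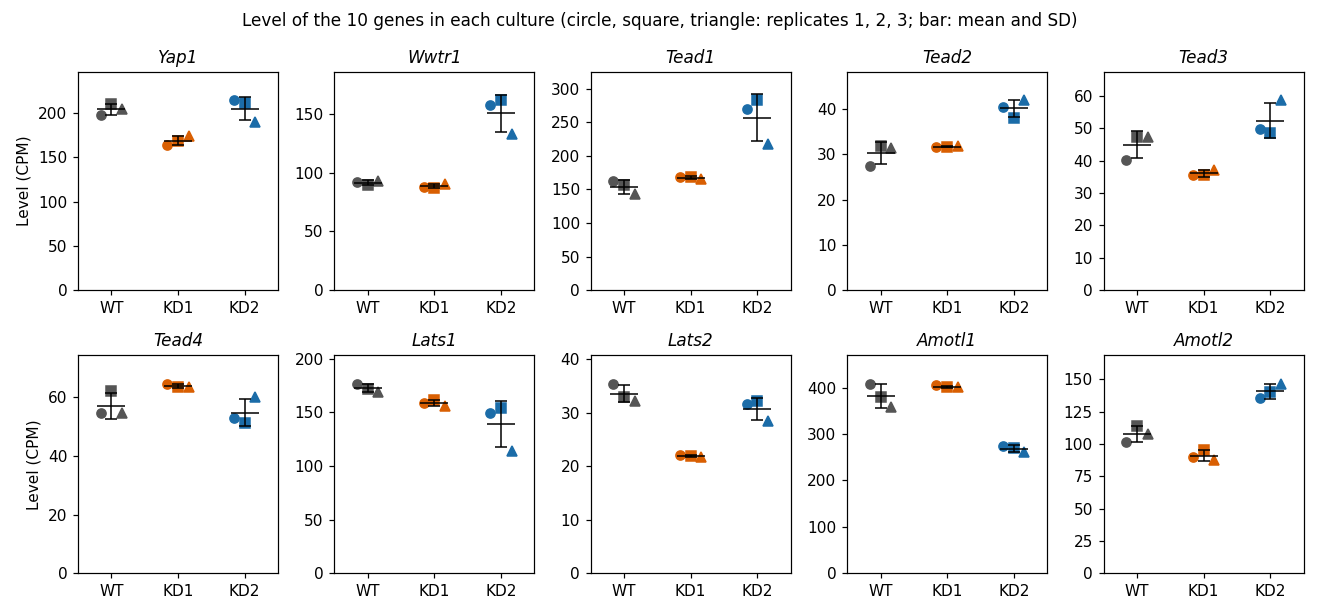
Level of each of the 10 genes in CPM (linear axes from 0) in the 3 cultures of *WT*, *KD1* and *KD2*, with replicates as circle, square and triangle and black bars for mean and SD (n = 3). *Wwtr1* and *Tead1* are higher in every *KD2* culture than in any other, *Lats2* is lowest in the 3 *KD1* cultures, and *Amotl1* is lowest in the 3 *KD2* cultures.

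Depth ran from 19231428 to 28360592 counts per culture, which puts a floor of 3 counts at 0.0999 to 0.154 CPM, far below the levels of the 10 genes (counting error only). *Vangl2*, the targeted gene, was detected in every culture, with 66, 99 and 86 counts in *WT*, 75, 48 and 69 in *KD1* and 90, 118 and 90 in *KD2*, and counts over the whole gene do not check an edit that is meant to add stop codons. At the protein level, the paper reports immunoblots with almost no VANGL2 in *KD1* and a strongly reduced amount in *KD2*. In the fit of all genes the log2 fold change of *Vangl2* mRNA against *WT* was -0.63 ± 0.17 (adjusted p = 0.00581) in *KD1* and 0.047 ± 0.16 (adjusted p = 0.81) in *KD2*, and the *KD* lines differed by 0.68 ± 0.17 (adjusted p = 0.00248). *KD2* replicate 3 and *WT* replicate 1 stood apart from the other cultures of their lines. *KD2* replicate 3 gave a chi-square per degree of freedom of 17.4 and 22.1 against the others, which differed from each other by 1.74, and *WT* replicate 1 gave 13.1 and 10.7, where the other pair gave 3.38. Pairs of *KD1* cultures gave 1.54, 1.37 and 1.81. The log2 difference of *KD2* replicate 3 from the other *KD2* cultures fell with the exon length of a gene (Spearman's rho -0.44 across 10376 genes, which are not independent), from a median of 0.20 in the fifth of genes with the shortest exons to -0.16 in the fifth with the longest. *WT* replicate 3 had a trend of the same sign against the other *WT* cultures (rho -0.45), with medians of 0.082 and -0.049. Among the 10 genes the difference of *KD2* replicate 3 was lowest for *Lats1* (-0.41), *Tead1* (-0.35) and *Wwtr1* (-0.27), and highest for *Tead3* (0.25) and *Tead4* (0.20). For *WT* replicate 1 the lowest was *Tead3* (-0.24) and the highest *Amotl1* (0.15). Calls for the 10 genes that changed when these cultures were left out are given with and without them.

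**Figure D2:**
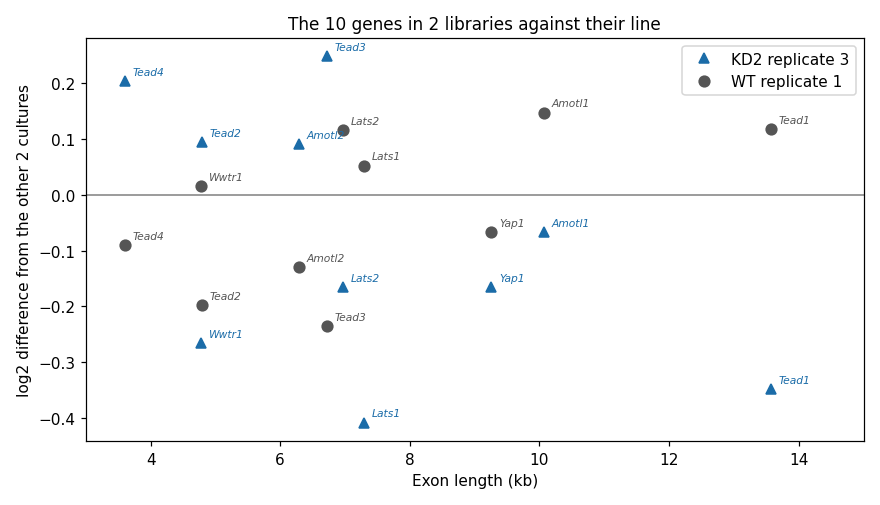
For each of the 10 genes, the log2 difference of *KD2* replicate 3 (triangles) and of *WT* replicate 1 (circles) from the mean of the other 2 cultures of its line, plotted against the gene's exon length in kilobases, with 1 point per gene and library. *KD2* replicate 3 read *Lats1*, *Tead1* and *Wwtr1* lower by 0.41, 0.35 and 0.27 on the log2 scale, and *Tead3* and *Tead4* higher by 0.25 and 0.20.

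*Yap1*, the gene for the coactivator YAP (chr9:7931999-8004596, minus strand, GRCm38), was read at 198, 211 and 204 CPM in the 3 *WT* cultures, 164, 169 and 174 CPM in *KD1* and 214, 211 and 189.8 CPM in *KD2*. The 3 *KD1* cultures lay below all others, and those of *WT* and *KD2* overlapped. In *KD1* the log2 fold change against *WT* was -0.27 ± 0.060 (adjusted p = 0.00139), or 0.827 times the *WT* level, while in *KD2* it was 0.0060 ± 0.060 (adjusted p = 0.935). In a bulk sample, fewer cells that express a gene and less of its RNA per cell cannot be told apart. *Yap1* shares 116 exon bases with *Gm20416* on the other strand, 1.25% of its exon length, and whether the counting used strand is not given in the sources used here.

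*Wwtr1*, which codes for TAZ, the partner of YAP (chr3:57455649-57575910, minus strand), was read at 92.3, 89.3 and 93.4 CPM in the 3 *WT* cultures, 88.2, 87.4 and 90.6 CPM in *KD1* and 158, 162 and 133 CPM in *KD2*. Every *KD2* culture was above all others, and those of *WT* and *KD1* overlapped. *Wwtr1* rose 1.65-fold in *KD2*, a log2 fold change of 0.72 ± 0.072 (adjusted p = 8.60e-07) against *WT*, and was 0.77 ± 0.071 (adjusted p = 3.59e-07) higher than in *KD1*. In *KD1* it stood at -0.047 ± 0.072 (adjusted p = 0.605). Without *KD2* replicate 3, the lowest *KD2* culture, the value in *KD2* was 0.83 (adjusted p = 3.38e-11).

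Levels of different genes were compared per kilobase of exon (RPKM). *Yap1* had an RPKM of 22.1 ± 0.676 in *WT*, 18.3 ± 0.502 in *KD1* and 22.2 ± 1.45 in *KD2*, and *Wwtr1* of 19.2 ± 0.442 in *WT*, 18.6 ± 0.354 in *KD1* and 31.5 ± 3.28 in *KD2*. Per kilobase, the 2 coactivators were thus read at near levels in *WT* and *KD1*, and in *KD2* the level of *Wwtr1* was above that of *Yap1*. This order rests on the exon lengths of *Yap1* (9257 bases) and *Wwtr1* (4779 bases), since *Yap1* had more counts in every culture. Without division by exon length, *Yap1* made up 69.0%, 65.6% and 57.7% of the reads of both in *WT*, *KD1* and *KD2*. The summed RPKM of both was 41.3 ± 0.476 in *WT*, 36.8 ± 0.802 in *KD1* and 53.7 ± 4.70 in *KD2*. Every *KD2* culture was above, and every *KD1* culture below, the 3 *WT* cultures in that sum. The share of *Wwtr1* in the sum was 46.5% ± 1.24 in *WT*, 50.4% ± 0.461 in *KD1* and 58.7% ± 1.09 in *KD2*, and so was higher in both *KD* lines, beside lower *Yap1* in *KD1* and higher *Wwtr1* in *KD2*. Shares and sums were not tested.

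*Tead1*, one of the 4 DNA-binding TEAD factors (chr7:112679318-112906807, plus strand), was read at 162, 157 and 143 CPM in the 3 *WT* cultures, 168, 169 and 165 CPM in *KD1* and 270.3, 283 and 217 CPM in *KD2*. Its levels in *KD2* were above those of all other cultures, with replicate 3 the lowest of the line. It rose 1.67-fold in *KD2*, a log2 fold change of 0.74 ± 0.086 (adjusted p = 4.01e-06), and was at 0.12 ± 0.086 (adjusted p = 0.24) in *KD1*. Without *KD2* replicate 3 the value in *KD2* was 0.87 (adjusted p = 5.81e-11), and the value in *KD1*, from the same fit, passed the test at 0.14 (adjusted p = 0.00773).

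*Tead2* (chr7:45215753-45233644, plus strand), a TEAD factor known from early embryos, was read at 27.5, 31.9 and 31.3 CPM in the 3 *WT* cultures, 31.6, 31.5 and 31.7 CPM in *KD1* and 40.5, 38.0 and 41.9 CPM in *KD2*. The *KD2* cultures lay above all others, and those of *WT* and *KD1* overlapped. Its log2 fold change was 0.40 ± 0.070 (adjusted p = 1.66e-04) in *KD2* and 0.062 ± 0.071 (adjusted p = 0.477) in *KD1*. Without both libraries that stood apart, the rise in *KD2* was 0.30 (adjusted p = 5.39e-06). *Tead2* shares 13 exon bases with *Cd37* on the other strand.

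*Tead3* (chr17:28331671-28350817, minus strand), a TEAD factor known from placenta, was read at 40.2, 47.3 and 47.5 CPM in the 3 *WT* cultures, 35.6, 35.5 and 37.3 CPM in *KD1* and 49.8, 48.7 and 58.6 CPM in *KD2*. *KD1* was the lowest line without overlap, and *KD2* lay above *WT* by little. It fell in *KD1*, with a log2 fold change of -0.32 ± 0.084 (adjusted p = 0.00521), and the call in *KD2* was weaker, at 0.22 ± 0.083 (adjusted p = 0.0339). That call did not pass the test in 6 of 17 alternatives, among them those without *WT* replicate 1 (0.14, adjusted p = 0.162), without *KD1* replicate 1 (0.21, adjusted p = 0.0521) or replicate 2 (0.21, adjusted p = 0.051), and without both libraries that stood apart (0.051, adjusted p = 0.361). The difference between the *KD* lines, 0.53 ± 0.084 (adjusted p = 5.96e-05), passed in all 17.

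*Tead4* (chr6:128224288-128300823, minus strand), the factor needed for the first trophectoderm cells of the embryo, was read at 54.6, 62.1 and 54.5 CPM in the 3 *WT* cultures, 64.6, 63.6 and 63.4 CPM in *KD1* and 52.9, 51.2 and 60.1 CPM in *KD2*. All 3 *KD1* cultures were above all others, the nearest being *WT* replicate 2, and those of *WT* and *KD2* overlapped. *Tead4* differed from *WT* by 0.16 ± 0.073 (adjusted p = 0.0741) in *KD1* and by -0.064 ± 0.073 (adjusted p = 0.456) in *KD2*. It was lower in *KD2* than in *KD1*, at -0.23 ± 0.073 (adjusted p = 0.0137), and did not pass without *KD2* replicate 1 (-0.20, adjusted p = 0.0508) or replicate 2 (-0.18, adjusted p = 0.0617), or with library size alone in place of TMM (-0.10, adjusted p = 0.248). Against *WT*, the value in *KD1* passed in 7 of 17 alternatives, among them those without *WT* replicate 2 (0.25, adjusted p = 0.017) and without *KD2* replicate 3 (0.18, adjusted p = 0.00576), and that in *KD2* passed only without both libraries that stood apart (-0.17, adjusted p = 0.00254).

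Per kilobase, *Tead4* and *Tead1* together gave most of the TEAD reads. The share of *Tead4* in the summed RPKM of the 4 factors was 39.4% ± 1.06 in *WT*, 42.2% ± 0.276 in *KD1* and 30.2% ± 2.66 in *KD2*, and that of *Tead1* was 28.2% ± 2.21 in *WT*, 29.3% ± 0.322 in *KD1* and 37.6% ± 5.05 in *KD2*. *Tead1* had the largest share in *KD2* replicates 1 and 2, where *Tead4* led in *WT*, in *KD1* and in *KD2* replicate 3. The share of *Tead1* in *WT*, 26.8% to 30.8%, did not reach the lowest *KD2* culture, at 31.9%. *Tead2* kept a share of 15.7% ± 0.942 in *WT*, 15.7% ± 0.0783 in *KD1* and 16.7% ± 0.821 in *KD2*, and *Tead3* held 16.7% ± 1.30 in *WT*, 12.8% ± 0.385 in *KD1* and 15.5% ± 1.65 in *KD2*. The summed RPKM of the 4 factors was 40.2 ± 1.99 in *WT*, 42.1 ± 0.154 in *KD1* and 50.3 ± 0.163 in *KD2*, and in *KD2* it differed little between replicate 3 and the other cultures (50.5, 50.3 and 50.2), although the share of *Tead1* did. The order of *Tead1* and *Tead4* rests on the exon lengths of 13570 and 3598 bases in the annotation used here, which is another release than the one the counts were made with, since *Tead1* had more counts than *Tead4* in every culture.

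**Figure D3:**
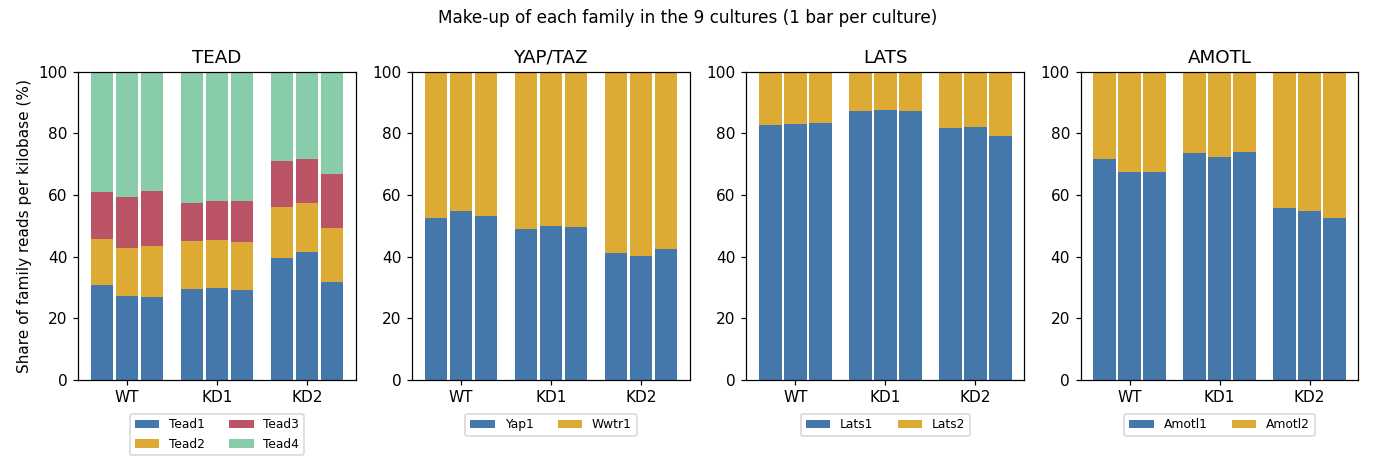
Share of each gene in the summed reads per kilobase of exon (%) of its family, with 1 stacked bar for each of the 9 cultures, for the TEAD factors, YAP and TAZ, the LATS kinases and the angiomotin-like genes. *Wwtr1* and *Amotl2* make up 58.7% and 45.6% of their families in *KD2* on average, against 46.5% and 31.1% in *WT*.

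*Lats1*, a kinase that phosphorylates YAP and TAZ (chr10:7681214-7716460, plus strand), was read at 177, 172 and 169 CPM in the 3 *WT* cultures, 159, 162 and 156 CPM in *KD1* and 149, 154 and 114 CPM in *KD2*. The *WT* cultures were above all others, and *KD2* replicate 3 was the lowest. *Lats1* fell in *KD2*, with a log2 fold change of -0.31 ± 0.089 (adjusted p = 0.0074), and was at -0.12 ± 0.089 (adjusted p = 0.269) in *KD1*. Without *KD2* replicate 3, the fall in *KD2* was about 2 times smaller, -0.16 (adjusted p = 0.00183), and *KD1* passed the test at -0.10 (adjusted p = 0.0204). With library size alone in place of TMM, the fall in *KD2* did not pass (-0.20, adjusted p = 0.0614). The difference between the *KD* lines, -0.19 ± 0.089 (adjusted p = 0.0763), passed without *KD2* replicate 1 (-0.24, adjusted p = 0.0469) or replicate 2 (-0.27, adjusted p = 0.019), and was -0.059 (adjusted p = 0.191) without replicate 3.

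*Lats2*, the second LATS kinase and itself a known target of YAP and TAZ (chr14:57689662-57758388, minus strand), was read at 35.5, 33.1 and 32.3 CPM in the 3 *WT* cultures, 22.2, 22.0 and 21.9 CPM in *KD1* and 31.7, 32.2 and 28.4 CPM in *KD2*. The 3 *KD1* cultures lay close together and below all others, while those of *KD2* were just below *WT*. *Lats2* had the largest change of the 10 genes in *KD1*, a log2 fold change of -0.61 ± 0.070 (adjusted p = 4.73e-06), or 0.655 times the *WT* level. In *KD2* it was -0.12 ± 0.069 (adjusted p = 0.125). Of its exon length, 42.4% is shared with *Gm49361*, a gene annotated on the same strand, so that reads from there may have been left out or split, which makes its level uncertain. *Lats2* made up 16.9% ± 0.376 in *WT*, 12.7% ± 0.208 in *KD1* and 18.9% ± 1.51 in *KD2* of the LATS reads per kilobase.

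*Amotl1*, an angiomotin-like scaffold protein of cell junctions (chr9:14541966-14645056, minus strand), was read at 409, 379.6 and 358 CPM in the 3 *WT* cultures, 405, 400.5 and 401 CPM in *KD1* and 275, 271 and 260.3 CPM in *KD2*. It had the highest level per kilobase of the 10 genes in *WT* and *KD1*, with an RPKM of 38.0 ± 2.51 in *WT*, 40.0 ± 0.228 in *KD1* and 26.7 ± 0.734 in *KD2*. Every *KD2* culture was below all others, and *WT* and *KD1* overlapped. *Amotl1* fell in *KD2*, with a log2 fold change of -0.51 ± 0.058 (adjusted p = 3.23e-06) against *WT* and of -0.58 ± 0.058 (adjusted p = 7.00e-07) against *KD1*, and was at 0.074 ± 0.058 (adjusted p = 0.296) in *KD1*. Without both libraries that stood apart, the value in *KD1* passed the test, at 0.12 (adjusted p = 0.00334).

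*Amotl2*, a related scaffold and a known target of YAP and TAZ (chr9:102716672-102733418, plus strand), was read at 101, 114 and 108 CPM in the 3 *WT* cultures, 89.9, 95.6 and 87.6 CPM in *KD1* and 135, 140.2 and 147 CPM in *KD2*. The 3 lines did not overlap, in the order *KD1*, *WT*, *KD2* from low to high, and each step passed the test. The log2 fold change against *WT* was -0.24 ± 0.063 (adjusted p = 0.00465) in *KD1* and 0.39 ± 0.063 (adjusted p = 9.77e-05) in *KD2*, and the lines differed by 0.63 ± 0.063 (adjusted p = 7.77e-07). *Amotl1* and *Amotl2* moved in opposite directions in *KD2*. The share of *Amotl2* in the reads per kilobase of both was 31.1% ± 2.35 in *WT*, 26.6% ± 0.931 in *KD1* and 45.6% ± 1.69 in *KD2*. The summed level of the family was not tested.

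**Figure D4:**
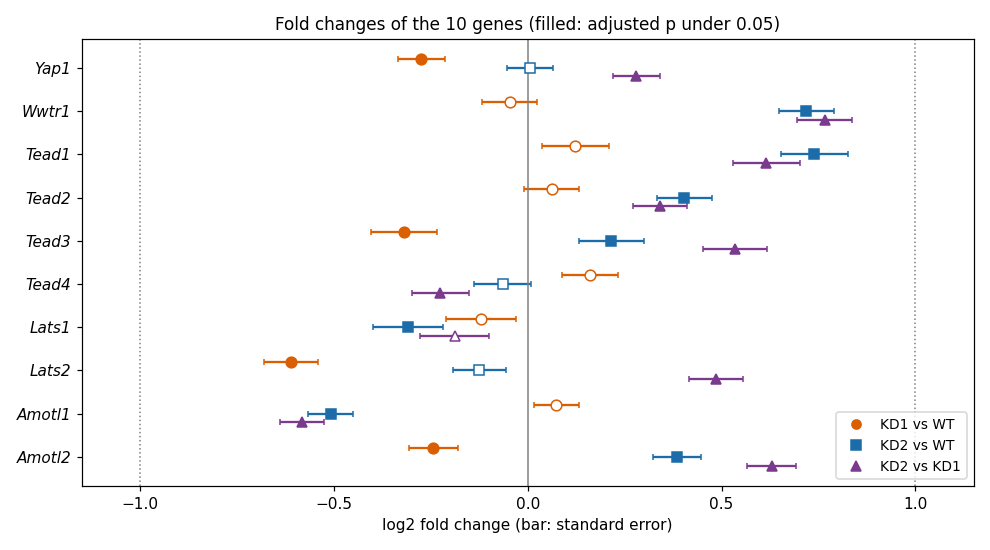
Log2 fold change of the 10 genes in *KD1* against *WT* (circles), *KD2* against *WT* (squares) and *KD2* against *KD1* (triangles), with bars for the standard error from the fit of all 9 cultures and filled points for an adjusted p under 0.05. All points lie inside the dotted lines at -1 and 1, *Lats2* is the lowest in *KD1* at -0.61, and *Wwtr1* and *Tead1* are the highest in *KD2* at 0.72 and 0.74.

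Of the pairs among the 10 genes, *Wwtr1* and *Tead1* had the most alike patterns over the 9 cultures, with a root mean square difference of 0.099 between their centred log2 CPM. *Tead3* and *Amotl2* followed at 0.10, then *Yap1* and *Lats2* at 0.15, and *Wwtr1* and *Amotl1* were the least alike at 0.61. Among all genes tested, the 3 most like *Yap1* were *Atp2b1* (0.027), *Anln* (0.034) and *Abcd3* (0.042), and the 3 most like *Wwtr1* were *Abi1* (0.035), *Prkce* (0.050) and *Mlf1* (0.054). The measure is a description over 9 cultures that share their libraries.

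The median log2 fold change of the genes tested within 2 Mb was set beside each of the 10 genes. For *Wwtr1* in *KD2* it was -0.20 over 21 genes and for *Tead1* 0.088 over 21 genes, against 0.72 and 0.74 for the genes themselves. Near *Yap1*, 10 genes had a median of -0.31 in *KD1*, beside -0.27 for *Yap1*, and near *Amotl1*, 20 genes had a median of -0.30 in *KD2*, beside -0.51. In *KD1* the genes near *Amotl1* had a median of -0.48, where *Amotl1* was at 0.074. Near *Lats2*, 49 genes had a median of -0.15 in *KD1*, beside -0.61, and -0.45 in *KD2*, beside -0.12. The median near *Yap1* in *KD2* was 0.16, beside 0.0060. For the other 5 genes in *KD2* the medians were 0.17 near *Tead2*, 0.14 near *Tead3*, 0.31 near *Tead4*, -0.20 near *Lats1* and 0.21 near *Amotl2*. For the other genes called in *KD1*, the medians there were -0.010 near *Tead3*, beside -0.32, and 0.25 near *Amotl2*, beside -0.24. All genes tested on chromosome 14, where *Lats2* lies, had a median of -0.47 in *KD2*. The part of regional change in these results was not tested.

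Of 51 other genes of the Hippo pathway, 46 passed the filter, while *Vgll1*, *Vgll2*, *Fat3* and *Dchs1* had 0 to 2 counts per culture. *Dchs2*, which also did not pass, had 0 to 2 counts in the *WT* and *KD1* cultures and 16, 20 and 5 in *KD2*. In *KD1*, 18 of the 46 rose (39.1%) and 11 fell (23.9%), beside 26.9% and 30.0% of all genes tested, with a median log2 fold change of 0.051. In *KD2*, 13 rose (28.3%) and 16 fell (34.8%), beside 34.0% and 33.3% of all genes, with a median of 0.013. Between the lines, 15 were higher (32.6%) and 20 lower (43.5%) in *KD2*, beside 34.8% and 33.0%. A change beyond 2-fold was seen for 6 genes in *KD1* (13.0%) and 4 in *KD2* (8.70%), both under the shares of all genes given above. In the core of the cascade, *Stk3* and *Stk4*, the genes for the MST kinases that activate LATS, went separate ways in *KD1*, at 0.43 ± 0.10 (adjusted p = 0.00173) and -0.29 ± 0.067 (adjusted p = 0.00229). In *KD2* they were at -0.12 ± 0.10 (adjusted p = 0.296) and -0.16 ± 0.067 (adjusted p = 0.0504). *Sav1*, the scaffold of these kinases, did not pass in either line (-0.057 and 0.079). *Nf2*, the gene for the upstream membrane protein merlin, fell in *KD1* (-0.32 ± 0.050, adjusted p = 7.13e-05) and stood at 0.057 ± 0.050 (adjusted p = 0.327) in *KD2*.

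Among the genes of this list that changed most, several went opposite ways in the 2 *KD* lines. *Fat4*, an atypical cadherin, had 2.10, 3.16 and 2.29 CPM in *WT*, 1, 4 and 2 counts in the *KD1* cultures and 18.7, 17.1 and 17.0 CPM in *KD2*, a log2 fold change of -4.74 ± 0.34 (adjusted p = 3.50e-08) in *KD1* that rests on few counts, and of 2.78 ± 0.14 (adjusted p = 1.41e-09) in *KD2*. *Fat2*, a relative of *Fat4*, had 57.2 ± 8.65 CPM in parental cells, 186 ± 3.49 CPM in *KD1* (1.70 ± 0.094, adjusted p = 2.20e-09) but 5.43 ± 0.741 CPM in *KD2* (-3.39 ± 0.12, adjusted p = 3.43e-11). *Fat2* thus rose in *KD1* and fell in *KD2*, the reverse of *Fat4*. *Rassf6*, a scaffold that binds MST kinases, did as *Fat2* did, at 1.52 ± 0.085 (adjusted p = 2.46e-09) and -2.62 ± 0.12 (adjusted p = 4.94e-10), while its relative *Rassf5* rose in both (0.85 and 1.04 ± 0.11, adjusted p = 1.73e-06). *Vgll3*, a cofactor that binds TEADs in place of YAP, fell in *KD1* from 75.9 ± 8.39 to 19.96 ± 0.494 CPM (-1.92 ± 0.10, adjusted p = 1.73e-09) and rose in *KD2* (0.57 ± 0.10, adjusted p = 1.15e-04). The kinase gene *Tnik* and the LATS inhibitor *Wtip* rose in *KD1* by 1.76 ± 0.082 (adjusted p = 3.16e-10) and 1.13 ± 0.13 (adjusted p = 3.76e-06), and were at -0.94 ± 0.092 (adjusted p = 7.82e-07) and -0.26 ± 0.14 (adjusted p = 0.117) in *KD2*. A further 3 genes, chosen after their values were seen, are *Wwc1* (KIBRA, an activator of LATS), which fell in *KD2*, at -0.84 ± 0.056 (adjusted p = 1.54e-08), and *Frmd6* and *Map4k3*, upstream activators, which rose there by 0.83 ± 0.056 (adjusted p = 1.67e-08) and 0.96 ± 0.070 (adjusted p = 3.98e-08). In *KD1*, *Wwc1* fell as well (-0.19, adjusted p = 0.00805), *Map4k3* fell (-0.35, adjusted p = 8.79e-04), and *Frmd6* was at 0.048 (adjusted p = 0.489).

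Target genes of YAP and TAZ were taken from a list of 22 written from general knowledge, which holds *Lats2* and *Amotl2*. Earlier results of these data were known when the list was written, so its counts are not independent of them. In *KD1*, 14 rose and 8 fell, together all 22, beside the 26.9% and 30.0% of all genes. In *KD2*, 14 rose (63.6%), 4 fell (18.2%) and 4 did not pass, beside 34.0% and 33.3% of all genes. Between the lines *KD2* had 10 higher (45.5%) and 9 lower (40.9%), beside 34.8% and 33.0%. Median log2 fold changes were 0.63 for *KD1*, 0.65 for *KD2* and -0.092 between the lines, also when genes at the floor were set to their bound. Leaving out *Lats2* and *Amotl2*, the 20 others had medians of 0.73 and 0.69 in the 2 *KD* lines. A change beyond 2-fold was seen for 31.8% of the 22 in each *KD* line, beside 16.8% of all genes in *KD1* and 21.2% in *KD2*. The list is described by these counts and was not tested as a set.

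*Ccn1*, whose promoter stretch is shown above, was read at 57.8, 71.6 and 71.0 CPM in the 3 *WT* cultures, 205, 205 and 196 CPM in *KD1* and 243, 259 and 236 CPM in *KD2*. It rose in both lines without overlap, by a log2 fold change of 1.60 ± 0.078 (adjusted p = 5.85e-10) in *KD1* and 1.88 ± 0.079 (adjusted p = 1.87e-10) in *KD2*. *Ccn2*, its close relative and the other common reporter, was read at 33.0, 34.9 and 39.0 CPM in the 3 *WT* cultures, 20.6, 18.8 and 20.5 CPM in *KD1* and 65.4, 68.7 and 62.3 CPM in *KD2*. *Ccn2* fell in *KD1* (-0.83 ± 0.077, adjusted p = 5.27e-07) and rose in *KD2* (0.88 ± 0.073, adjusted p = 1.39e-07), so that the 2 reporters were opposite in *KD1*. *Ankrd1*, the third reporter, was read at 71.3, 75.1 and 86.2 CPM in the 3 *WT* cultures, 138, 135 and 141 CPM in *KD1* and 130.1, 131 and 113 CPM in *KD2* and rose in both lines, at 0.83 ± 0.078 (adjusted p = 6.33e-07) and 0.69 ± 0.078 (adjusted p = 3.14e-06).

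Of the targets with the largest changes, *Nuak2*, a kinase, rose in both lines, with means of 5.90 ± 0.377 CPM in *WT*, 21.0 ± 0.142 in *KD1* (1.83) and 13.5 ± 0.632 in *KD2* (1.19). *F3*, the gene for tissue factor, rose from 5.05 ± 0.854 to 17.1 ± 0.273 and 15.1 ± 0.328 CPM (1.76 and 1.58). The growth factor gene *Tgfb2* rose in *KD2* by 1.92 ± 0.11 (adjusted p = 4.59e-09) and in *KD1* by 0.83 ± 0.12 (adjusted p = 3.92e-05), and *Fjx1* rose by 1.13 in *KD1* and 0.70 in *KD2*. *Gadd45a*, a stress response gene, fell in both, at -0.95 ± 0.086 (adjusted p = 4.32e-07) and -1.47 ± 0.088 (adjusted p = 5.88e-09). Others were opposite. *Igfbp3*, which binds insulin-like growth factors, had 142 ± 3.50 CPM in *WT*, rose to 1043 ± 38.2 in *KD1* (2.88 ± 0.062, adjusted p = 1.32e-13), and fell to 95.7 ± 5.73 in *KD2* (-0.57 ± 0.059, adjusted p = 1.36e-06). *Rbms3* rose in *KD1* (1.46 ± 0.15, adjusted p = 1.25e-06) and had 2, 2 and 0 counts in *KD2*, at least 28.2-fold lower than *WT* against the floor of 3 counts per library. *Ccdc80*, at 0.591 ± 0.157 CPM in *WT*, had 1, 1 and 2 counts in *KD1*, at least 5.07-fold lower, and rose in *KD2* (1.41 ± 0.24, adjusted p = 1.19e-04).

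**Figure D5:**
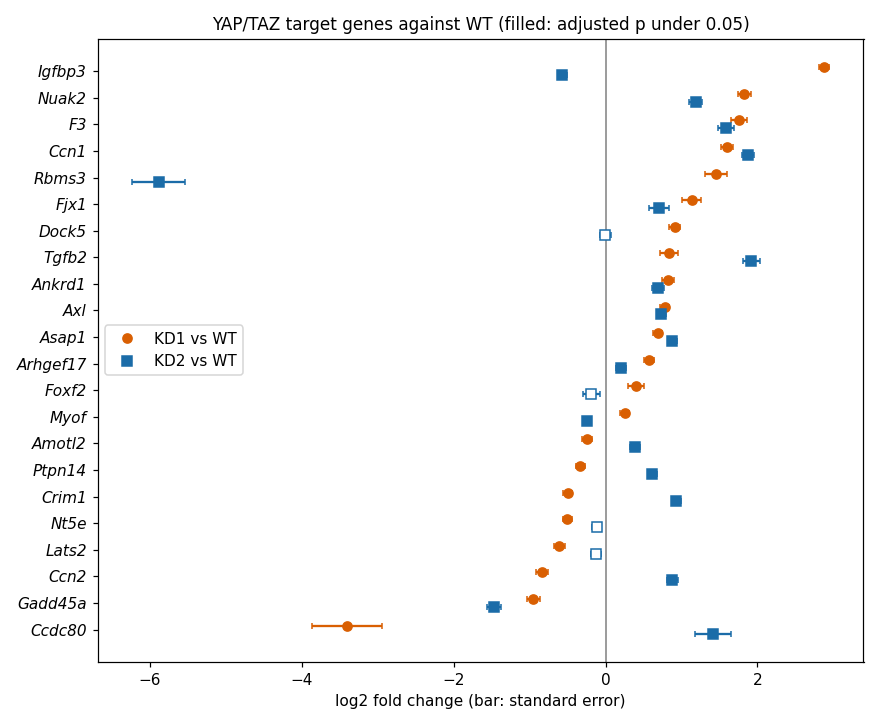
Log2 fold change against *WT* of 22 target genes of YAP and TAZ in *KD1* (circles) and *KD2* (squares), ordered by the value in *KD1*, with bars for the standard error and filled points for an adjusted p under 0.05. In each line 14 of the 22 are called higher, and *Ccn2*, *Igfbp3* and *Rbms3* are among those called in opposite directions; the fitted values of *Rbms3* in *KD2* and *Ccdc80* in *KD1* rest on 0 to 2 counts per culture.

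Of the same 22 targets, the promoter table matched 15, with 17 promoters, of which 7 (41.2%) held GGAATG, beside 14.7% of all promoters. Beside *Amotl2*, *Lats2* and *Ccn1*, these belonged to *Ankrd1*, *Axl*, *Crim1* and *Ptpn14*. Of these genes, *Ankrd1*, *Axl* and *Ccn1* rose in both lines, while *Crim1* and *Ptpn14* fell in *KD1* (-0.50 and -0.33) and rose in *KD2* (0.93 and 0.62). Promoters with the motif thus belonged to genes of both kinds, and so did those without it. Among the latter, *F3* and *Tgfb2* rose in both lines, and *Igfbp3* and *Rbms3* went opposite ways. *Ccn2*, *Nuak2*, *Fjx1*, *Ccdc80*, *Asap1*, *Dock5* and *Arhgef17* were not matched, and their promoters were not searched.

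Other features of the cultures moved with the lines. Summed CPM of 6 basal epithelial markers ran from 3578 to 4021 in *WT*, from 3853 to 3954 in *KD1* and from 1800.0 to 2291 in *KD2*. Of these, the smooth muscle genes *Acta2* and *Myh11* had only 1 to 43 and 2 to 13 counts per culture, while *Krt5*, *Krt14* and *Trp63* made up most of the sum and fell in *KD2*, where *Acta2* rose from its low level (3.15, adjusted p = 1.67e-06). In *KD1*, *Trp63* rose (0.73, adjusted p = 3.63e-07) and *Myh11* fell (-1.84, adjusted p = 0.00189), while *Krt5*, *Krt14* and *Acta2* did not pass. *Oxtr* fell in both lines, with 1 to 3 counts in *KD1* (-6.56, adjusted p = 4.80e-11) and at -0.94 (adjusted p = 2.72e-05) in *KD2*. Summed CPM of 6 luminal markers ran from 1517 to 1663 in *WT*, from 2066 to 2141 in *KD1* and from 1228 to 1433 in *KD2*, with *Krt19* at 0 counts in every culture. Members of the luminal list went opposite ways in *KD2*, where *Krt8* rose (0.76, adjusted p = 7.40e-06), *Cdh1* (-0.69, adjusted p = 5.28e-08), *Epcam* (-0.36, adjusted p = 6.35e-04) and *Cldn3* (-0.79, adjusted p = 1.04e-05) fell, and *Krt18* was at 0.13, adjusted p = 0.162. For 7 fibroblast markers it was 17.0 to 23.0 in *WT*, from 8.07 to 10.1 in *KD1* and from 90.1 to 99.9 in *KD2*, with *Dcn* and *Lum* at 0 to 6 counts. *Pdgfrb* alone gave 63.5 to 72.6 CPM of the sum in *KD2*, where *Pdgfra* and *Col1a2* also rose (1.04, adjusted p = 1.89e-06, and 1.38, adjusted p = 1.88e-04), while *Col1a1* fell (-0.71, adjusted p = 0.00186) and *Col3a1* was at -0.17, adjusted p = 0.428. In *KD1*, *Pdgfrb* (-2.50), *Col1a1* (-3.62), *Col1a2* and *Col3a1* were called lower, with 0 or 1 counts for *Col1a2* and *Col3a1*. *Pdgfra* was at 0.074 (adjusted p = 0.618) there. Leukocyte, endothelial and adipocyte markers stayed under 8.4, 5.6 and 0.3 CPM in sum. The sum of 12 genes of cycling cells ran from 4588 to 4849.9 in *WT*, from 5100.4 to 5278 in *KD1* and from 4382 to 4578 in *KD2*, of which *KD1* had 7 called higher and 2 lower, where *KD2* had 2 called higher and 4 lower. Of all genes, 26.9% were called higher and 30.0% lower in *KD1*, and 34.0% and 33.3% in *KD2*. The part of cell state and cycling in the levels of the 10 genes was not tested.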

How the data were processed

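The table the authors deposited holds raw read counts of 55228 genes in 9 cultures. Before that, reads had been trimmed (fastp), aligned to GRCm38 (HISAT2) and assigned to genes by their exons (featureCounts), and whether strand was used is not given in the sources used here. Every column belonged to 1 culture, named by its label. Counts were tested here with edgeR 4.0.16 in R 4.3.3 (quasi-likelihood, TMM, expression filter, 1 fit of all 9 cultures, no block), adjusted by Benjamini-Hochberg over 15253 genes. Each standard error is the fold change over the root of its F, and the fit was tested on simulated data. RPKM is the CPM divided by exon length in GENCODE vM21, which matched 53456 gene names directly and 131 through a synonym. The counts were made with another release of this annotation, so exon lengths, and the levels per kilobase and shares that rest on them, may differ from those of the counted models. Shared-sequence windows were 50 bases long.

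The 10 genes, the 2 lists and the markers were chosen with earlier results of these data known. From each list the text names up to 8 genes with the largest change among those called and beyond 2-fold in a *KD* line against *WT*, plus *Ccn1*, *Ccn2*, *Ankrd1*, *Stk3*, *Stk4*, *Sav1* and *Nf2*. Alternatives were DESeq2 1.42.0, 2 other scalings, 2 other filters, the 6 cultures compared, a replicate block, stricter calls, each culture left out, and, chosen after seeing the data, both libraries that stood apart left out. Counting depth allowed changes far under 2-fold to be called for the 10 genes.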

Additional observations from a re-analysis of the deposited data

Results flagged for a closer look

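For 9 of the 10 genes the response differed between the *KD* lines by the test of the difference itself, edgeR's quasi-likelihood test of *KD2* against *KD1* with Benjamini-Hochberg adjustment. The log2 differences (*KD2* minus *KD1*) were 0.28 for *Yap1*, 0.77 for *Wwtr1*, 0.62 for *Tead1*, 0.34 for *Tead2*, 0.53 for *Tead3*, -0.23 for *Tead4*, 0.49 for *Lats2*, -0.58 for *Amotl1* and 0.63 for *Amotl2*. Of all genes tested, 34.8% were called higher and 33.0% lower in this comparison, so such a difference is common between the lines. Each line is 1 clone, and the guide and the clone cannot be told apart.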

How the results depend on the processing

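Across 17 alternatives, the calls of *Wwtr1*, *Tead1*, *Tead2*, *Amotl1* and *Amotl2* in *KD2*, and those of *Yap1*, *Tead3*, *Lats2* and *Amotl2* in *KD1*, kept their direction and passed the test. *Wwtr1* in *KD2* ranged from 0.67 to 0.83, *Tead1* from 0.67 to 0.88 and *Lats2* in *KD1* from -0.63 to -0.57. The count of the 10 genes higher in *KD1* was 1 with DESeq2, with median-of-ratios size factors and where 10 counts were required in each culture, 2 with the 6 cultures compared, 0 to 2 with 1 culture left out, and 3 without both libraries that stood apart. The count lower was 1 with library size alone in *KD2*, against *WT* (without *Lats1*) and against *KD1* (without *Tead4*), and 1 between the *KD* lines at an adjusted p under 0.01. With an absolute log2 fold change above 1 the counts for the 10 genes were 0 in every comparison. For the other Hippo genes they were 4 higher and 2 lower in *KD1*, 2 and 2 in *KD2*, and 3 and 6 between the lines, and for the targets 6 and 1, 5 and 2, and 4 and 2.

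Sign changes were of values near 0. *Yap1* in *KD2* was -0.025 with no filter on low counts and -0.025 to 0.085 with 1 culture left out. *Tead2* in *KD1* was -0.0060 without both libraries. *Tead4* in *KD2* was 0.046 with library size alone, 0.0064 with at least 10 counts, and -0.11 to 0.025 with 1 culture left out. *Stk3* in *KD2* was -0.21 to 0.035 and *Vangl2* -0.038 to 0.13 with 1 culture left out, and *Vangl2* was -0.10 without both libraries. The cause was not tested. Deviations of same-numbered cultures had a mean correlation of 0.0083 (-0.075 to 0.11 over 9 pairs). For cultures with different numbers it was -0.0054 (-0.12 to 0.13 over 18 pairs). The ranges overlap, and they cannot tell whether same-numbered cultures were handled together. With the replicate block, 5 of the 10 genes were higher and 2 lower in *KD2*, 0 and 4 in *KD1*, and *Lats1* passed between the lines at -0.20 (adjusted p = 0.0374). *KD2* replicate 3, whose deviation went with exon length as that of *WT* replicate 3 did, was also the least deeply sequenced library. Without division by exon length, *Tead1* made up 53.8%, 56.0% and 63.3% of TEAD reads in *WT*, *KD1* and *KD2*.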
